A study of Mus musculus with 6 samples.

Results

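Synaptic adhesion molecules other than neurexins are cell surface proteins that join the presynaptic and the postsynaptic membrane. The set described here holds 45 genes of 14 subfamilies, taken as a list of names, of which 44 were matched to a gene of the array annotation among 19938 genes measured in all. Cadm2 was not matched and is named only. Their transcripts were read from dentate gyrus (DG) granule cells of 3 controls and 3 Bcl11b/Ctip2 mutants. The mutants belonged to the tet-off line, in which Bcl11b flox/flox mice carry tetO-Cre and CaMKIIα-tTA, so that Cre is made in forebrain neurons when doxycycline is absent. All mice received doxycycline with the drinking water from embryogenesis to 2 months of age, and the brains were taken 4 weeks after its removal. Which of these alleles the tet-off controls carried is not stated in the sources used here. The layer was cut by laser capture microdissection from cryosections stained with cresyl violet, and each RNA was hybridized to 1 Affymetrix array. The question asked was how the loss of the transcription factor Bcl11b/Ctip2 in adult animals alters the transcripts of granule cells, whose axons, the mossy fibers (MF), contact CA3 pyramidal neurons.

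Adhesion pairs across the synaptic cleft differ in the side on which each partner stands. LAR-type receptor phosphatases stand on the axon and bind SLITRK, some SALM and interleukin-1 receptor accessory proteins on the dendrite. Neuroligins, LRRTM proteins and calsyntenins bind neurexins or heparan sulfate, and FLRT proteins bind latrophilins together with teneurins. Nectins form the adherens junctions between MF terminals and CA3 dendrites, with nectin-1 on the axonal and nectin-3 on the dendritic side. A granule cell makes proteins of the axon and of the dendrite, and a transcript measured in its soma does not tell where the protein goes.

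The sequences upstream of the transcription start are shown for the genes with the largest decreases (Adgrl2, Adgrl3, Lrrtm4) and the largest increases (Elfn2, Cadm3, Clstn3) among the 12 changed genes that have an entry in the RefSeq promoter table (GRCm38.p6). Clmp, Nectin1 and Ptprd, which changed by as much or more, have no entry in it. Each line gives the 250 bases before the most upstream start, 5′ to 3′ on the strand of the gene. Capitals mark TGGGC, which the study names as a putative Bcl11b/Ctip2 binding site, or its reverse complement GCCCA. The windows are chr3:148954636-148954885 (minus strand) for Adgrl2, chr5:81020321-81020570 (plus strand) for Adgrl3, chr6:80018627-80018876 (plus strand) for Lrrtm4, chr15:78718772-78719021 (minus strand) for Elfn2, chr1:173367696-173367945 (minus strand) for Cadm3 and chr6:124464785-124465034 (minus strand) for Clstn3.
Adgrl2: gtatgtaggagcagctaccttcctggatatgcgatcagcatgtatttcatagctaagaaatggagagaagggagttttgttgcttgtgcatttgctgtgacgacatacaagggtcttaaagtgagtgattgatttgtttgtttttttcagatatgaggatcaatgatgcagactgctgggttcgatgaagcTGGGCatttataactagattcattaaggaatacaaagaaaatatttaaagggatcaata
Adgrl3: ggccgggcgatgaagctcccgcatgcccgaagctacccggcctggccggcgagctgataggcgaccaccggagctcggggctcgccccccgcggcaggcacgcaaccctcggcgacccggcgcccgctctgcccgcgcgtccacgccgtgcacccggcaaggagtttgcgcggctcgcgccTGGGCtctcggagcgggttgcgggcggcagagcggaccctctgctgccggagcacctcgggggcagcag
Lrrtm4: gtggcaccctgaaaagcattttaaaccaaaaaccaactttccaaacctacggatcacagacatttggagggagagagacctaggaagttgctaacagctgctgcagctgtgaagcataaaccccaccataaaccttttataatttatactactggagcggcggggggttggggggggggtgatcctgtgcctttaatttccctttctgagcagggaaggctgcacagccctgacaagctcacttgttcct
Elfn2: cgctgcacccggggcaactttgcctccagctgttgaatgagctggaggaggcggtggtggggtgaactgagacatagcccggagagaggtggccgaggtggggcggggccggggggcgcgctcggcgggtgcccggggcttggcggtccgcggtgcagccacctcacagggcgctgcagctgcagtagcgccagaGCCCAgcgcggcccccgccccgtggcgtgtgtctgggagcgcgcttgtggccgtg
Cadm3: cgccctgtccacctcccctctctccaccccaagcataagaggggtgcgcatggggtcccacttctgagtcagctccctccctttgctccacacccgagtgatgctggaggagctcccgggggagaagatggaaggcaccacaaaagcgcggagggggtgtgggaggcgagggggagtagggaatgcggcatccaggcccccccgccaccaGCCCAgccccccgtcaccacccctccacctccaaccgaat
Clstn3: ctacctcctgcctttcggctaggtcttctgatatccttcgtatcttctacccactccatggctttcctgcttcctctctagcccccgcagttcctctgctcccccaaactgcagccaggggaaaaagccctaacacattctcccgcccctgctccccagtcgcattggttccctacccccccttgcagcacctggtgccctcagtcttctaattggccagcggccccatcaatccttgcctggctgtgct
The motif was present 1 time in the windows of Adgrl2, Adgrl3, Elfn2 and Cadm3 and was not found in those of Lrrtm4 and Clstn3. In the Adgrl2 and Adgrl3 windows it lay on the strand of the gene, and in those of Elfn2 and Cadm3 on the other strand. Of the 34 adhesion genes with an entry, 22 (64.7%) held the motif on either strand of this window, as did 50.7% of all 32851 windows in the table. The windows of the adhesion genes also had a higher GC content, with a median of 63.0% against 52.4% in all windows. Among them, 3 of 4 genes higher in the mutant, 6 of 8 lower and 13 of 22 that did not pass the test held the motif. A match of these letters is not a binding site. The study found the motif in the C1ql2 region it assayed, which lies farther upstream than the windows shown here. Its Sema5B region lacked the motif, yet DNA of both regions was enriched with the Bcl11b/Ctip2 antibody.

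The labelled cell type was checked against its markers. Prox1, the transcription factor that defines granule cells, had a log2 level of 11.65 in controls and 11.60 in mutants. Bcl11b itself was at 10.56, 10.40 and 10.30 in controls and at 9.03, 8.68 and 8.82 in mutants 1 to 3 (log2 change -1.58, limma adjusted p = 2.56e-05). Of 8 granule cell markers 4 were lower and 1 higher, where 5.93% of all genes were lower and 9.23% higher. The mean log2 level of these 8 was 11.04 to 11.17 in controls and 10.8 to 10.9 in mutants. Calb1 was at 51.1%, Dsp at 57.1%, Stxbp6 at 62.1% and Lct at 70.3% of the control level, and Tdo2 at 219%. Of 5 markers of immature granule cells 3 were higher (Dcx, Sox11 and Neurod1). The mean log2 level of these 5 was 8.04 to 8.28 in controls and 8.41 to 8.61 in mutants. The mean level of 7 astrocyte markers was 8.27 to 8.58 in controls and 8.49 to 8.72 in mutants (1 higher), and that of 8 interneuron markers 8.26 to 8.58 and 8.24 to 8.40 (2 lower). For 5 microglia markers it was 7.18 to 7.60 and 7.07 to 7.23 (1 lower), for 5 oligodendrocyte markers 8.30 to 8.42 and 8.14 to 8.32 (none changed with limma). For 4 markers of CA1 and CA3 pyramidal cells it was 6.77 to 6.95 in controls and 6.55 to 6.69 in mutants (1 higher, 2 lower), and for 4 endothelial markers 6.52 to 6.73 and 6.66 to 6.94 (1 higher). None of 3 mossy cell markers (5.76 to 6.18 in controls, 5.81 to 5.88 in mutants) or 3 markers of oligodendrocyte precursors (6.29 to 6.55 and 6.32 to 6.58) passed with limma. The part of these shifts in the results on adhesion genes was not tested, and fewer cells of a type cannot be told apart from less RNA per cell. Among all genes 3023 changed, and 4487 did when control 1 was left out.

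Adhesion genes changed in both directions in mutant granule cells. Of the 44 genes, 7 rose (Nectin1, Ptprd, Elfn2, Cadm3, Clstn3, Ptprs and Lrfn2), 10 fell (Clmp, Adgrl2, Adgrl3, Lrrtm4, Il1rapl1, Flrt2, Slitrk2, Slitrk4, Lrfn5 and Il1rap) and 27 did not pass the test. These 17 genes are 38.6% of those measured, where 15.2% of all genes changed. The list was drawn up with earlier results of these data known, so the excess over all genes is a description and not independent evidence. Of the adhesion genes 15.9% were higher and 22.7% lower, against 9.23% and 5.93% of all genes. The adhesion genes lie high on the arrays, 41 of 44 at or above the median level, and among these 41 genes 41.5% changed against 25.0% of all genes at that level. There 17.1% of the adhesion genes were higher and 24.4% lower, against 15.2% and 9.79% of all genes. By the limma calls, the share of increases was thus close to that of all genes at that level, and the excess lay mostly in the decreases. The median change of the 44 genes was 0.045 on the log2 scale, and -0.0027 over all genes. In size, without regard to direction, the median was 0.23 for the adhesion genes and 0.082 for all genes. Part of this distance goes with level. When only genes whose level was not under the median were compared, these sizes were 0.24 and 0.13. The median changes with direction were then 0.048 for the adhesion genes and 0.025 for all genes. Control and mutant arrays did not overlap for 26 of the 44 genes (15 higher and 11 lower in the mutants), and for 31.6% of all genes (17.0% higher and 14.6% lower). At or above the median level they did not overlap for 25 of 41 adhesion genes (15 higher and 10 lower). Of all 9969 genes at that level this held for 4458 (2578 higher and 1880 lower). By this measure the excess did not lie mostly in the decreases. With 3 arrays in each group the smallest p of an exact permutation test is 0.1, so each call rests on a modelled spread, which limma shares between genes. The methods' t-test after adjustment shares none and kept 4 of the 7 higher and 3 of the 10 lower calls (5.72% of all genes changed). The count without control 1 was 11 higher and 11 lower (22.5% of all genes changed), without control 2 it was 5 and 5 (9.69%), and without mutant 1 it was 6 and 5 (9.46%).

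**Figure D1:**
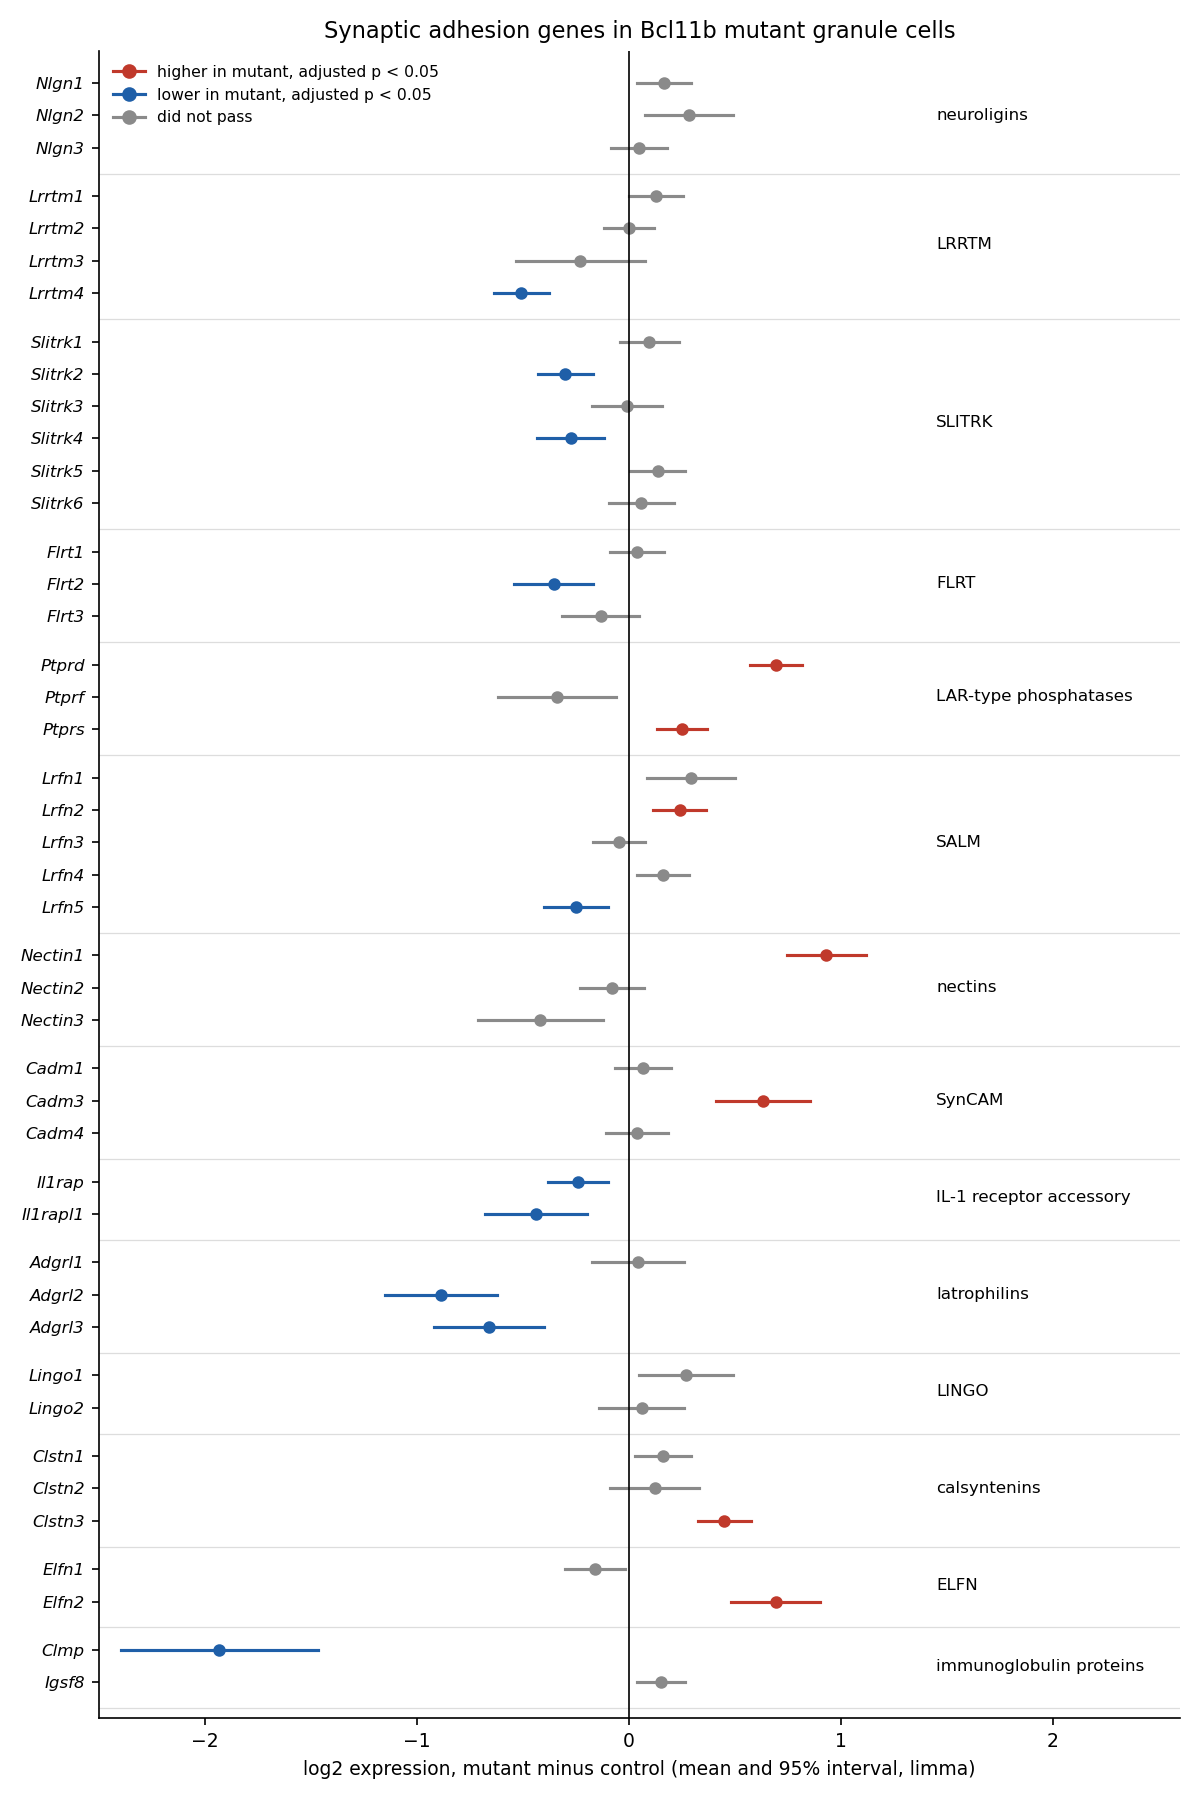
Log2 expression in mutant minus control granule cells for 44 synaptic adhesion genes on the horizontal axis, by subfamily, with limma means as points and 95% intervals as lines (3 arrays per group). Red genes were higher and blue genes lower at an adjusted p under 0.05, and grey genes did not pass. Clmp, at -1.93, lies farther from 0 than any other gene plotted.

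The largest change was that of Clmp, an immunoglobulin adhesion protein related to the coxsackievirus and adenovirus receptor. Its log2 level (probe set 10584561) was 9.16, 8.41 and 8.42 in controls 1 to 3 and 6.71, 7.01 and 6.48 in mutants 1 to 3. Control 1 was the highest array, and the lowest control was 1.405 above the highest mutant. The log2 change was -1.93 (standard error, SE, 0.20, 95% interval -2.40 to -1.47, limma adjusted p = 3.84e-04), which leaves 26.2% of the control level. Without control 1 it was -1.68, the smallest change with any array left out. Igsf8, an immunoglobulin protein of MF synapses, was at 9.53, 9.55 and 9.55 in controls and 9.68, 9.68 and 9.74 in mutants. These groups did not overlap, but the change of 0.15 did not pass with limma (adjusted p = 0.0808). It passed with the methods' t-test after adjustment (adjusted p = 0.0430), with a control SD of 0.014.

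Latrophilins are adhesion G protein-coupled receptors that bind teneurins and FLRT proteins. Adgrl2 and Adgrl3 fell, and Adgrl1 did not pass the test. Adgrl3 was at 10.99, 10.65 and 10.49 in controls and at 10.13, 9.97 and 10.04 in mutants. Every mutant array lay below every control array, and controls 2 and 3 were nearer to the mutants than control 1. Its log2 change was -0.66 (SE 0.11, limma adjusted p = 0.00521), or 63.2% of the control level. Adgrl1 was at 11.97, 11.65 and 11.57 in controls and 11.80, 11.76 and 11.75 in mutants, so that its mutant arrays lay within the range of the controls. Its change was 0.042, with a 95% interval of -0.18 to 0.26.

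Adgrl2 has 8 probe sets on the array, more than any other adhesion gene. The one with the highest mean (10502776) was at 7.75, 7.64 and 7.53 in controls and at 6.60, 7.04 and 6.63 in mutants, a log2 change of -0.89 (SE 0.12, limma adjusted p = 0.00122). All 8 had a lower mean in the mutants, with changes of -0.25 to -0.89, and 4 of them passed when every probe set was tested on its own. The 4 that did not pass had an adjusted p of 0.0836 to 0.367. In controls, 5 of the 8 had a mean of 5.06 to 6.04, below the medians of the arrays (6.29 to 6.36). Among the probe sets above these medians only 10502776 passed. There 10502748 (control mean 6.85) and 10502780 (6.66) did not, with a limma adjusted p of 0.0836 and 0.119. The mean of the 8 probe sets gave a log2 change of -0.51 (limma adjusted p = 0.0143). With the methods' t-test after adjustment neither Adgrl2 (adjusted p = 0.0638) nor Adgrl3 (adjusted p = 0.107) passed.

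**Figure D2:**
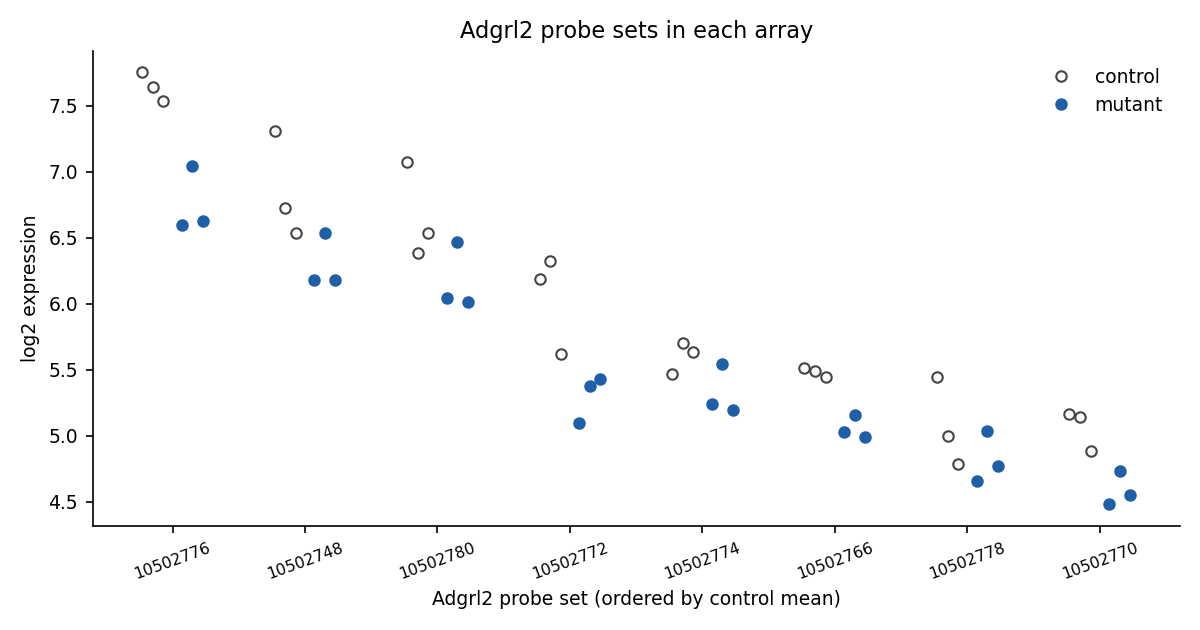
Log2 expression of the 8 Adgrl2 probe sets (horizontal axis, ordered by control mean) in each array, with open circles for controls and filled circles for mutants (n = 3 each). The mutants lie below the controls on average in every probe set, and the distance is largest in the brightest one, at -0.89.

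FLRT proteins are leucine-rich repeat ligands of latrophilins and of UNC5 receptors. Flrt2 was at 9.79, 9.65 and 9.56 in controls and at 9.22, 9.46 and 9.25 in mutants. The groups did not overlap, and mutant 2 was 0.10 below the lowest control. The log2 change was -0.36 (SE 0.083, limma adjusted p = 0.0204), with an adjusted p of 0.0658 without control 2, 0.0892 without mutant 1 and 0.0870 without mutant 3. Flrt1 and Flrt3 had changes of 0.039 and -0.13 and did not pass.

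Of the LRRTM proteins, which bind neurexins and, for Lrrtm4, heparan sulfate proteoglycans, Lrrtm4 fell. It is the member known for excitatory synapses on dentate granule cells. Its level was 10.86, 10.85 and 10.94 in controls and 10.31, 10.42 and 10.41 in mutants, with a spread within each group much smaller than the distance between them. The log2 change was -0.51 (SE 0.058, limma adjusted p = 5.65e-04), or 70.3% of the control level. Lrrtm1 had a change of 0.13 with groups that did not overlap (adjusted p = 0.186). Lrrtm2 was at 12.09 in both groups, with a 95% interval of the change of -0.12 to 0.12. Lrrtm3 was at 10.33, 10.62 and 10.86 in controls and at 10.22, 10.57 and 10.33 in mutants, and its change of -0.23 passed only when control 1 was left out (-0.37, adjusted p = 0.0381).

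Neuroligins, the postsynaptic partners of neurexins, did not pass the test in either direction. Nlgn2, the neuroligin of inhibitory synapses, was at 11.09, 10.99 and 10.74 in controls and at 11.13, 11.28 and 11.25 in mutants. Nlgn1, the neuroligin of excitatory synapses, was at 10.56, 10.61 and 10.47 in controls and at 10.70, 10.70 and 10.73 in mutants. In these genes every mutant array was above every control array, with log2 changes of 0.28 (adjusted p = 0.0746) and 0.16 (limma adjusted p = 0.0889). Without control 1, Nlgn2 passed (0.36, adjusted p = 0.0134). Nlgn3 had a change of 0.048, with a 95% interval of -0.084 to 0.18.

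Calsyntenins are cadherin-related proteins of the postsynaptic membrane. Clstn3 rose from 10.75, 10.86 and 10.81 in controls to 11.30, 11.26 and 11.22 in mutants. Arrays of a group differed by at most 0.10, and the log2 change was 0.45 (SE 0.055, limma adjusted p = 8.04e-04), or 1.37-fold. Clstn1 and Clstn2 had changes of 0.16 (adjusted p = 0.111) and 0.12 (adjusted p = 0.465) and did not pass. Without control 1 they did, with changes of 0.21 (adjusted p = 0.0259) and 0.23 (adjusted p = 0.0395).

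Among the LAR-type phosphatases, axonal receptors that organize the release site, Ptprd and Ptprs rose. Ptprd was at 9.92, 9.83 and 9.84 in controls and at 10.54, 10.59 and 10.55 in mutants. The arrays of each group lay within 0.094 of each other, and the log2 change was 0.69 (SE 0.053, limma adjusted p = 7.23e-05), or 1.62-fold. No other adhesion gene had a smaller p. Ptprs was at 11.57, 11.50 and 11.51 in controls and at 11.76, 11.81 and 11.75 in mutants. Its log2 change was 0.25 (SE 0.052, limma adjusted p = 0.0124), with an adjusted p of 0.0544 without control 2 and 0.0559 without mutant 2. Ptprf was at 9.05, 8.95 and 8.61 in controls and at 8.73, 8.41 and 8.46 in mutants, and its change of -0.34 did not pass (adjusted p = 0.107). It passed without control 3 (-0.47, adjusted p = 0.0186), the control that lay among the mutants.

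Of the 13 SLITRK, SALM and interleukin-1 receptor accessory genes, subfamilies that hold ligands of these phosphatases, 5 fell, 1 rose and 7 did not pass. The 13 genes were pooled for this count only, and the pooling was not planned beforehand. Over all genes 5.93% fell and 9.23% rose, and at or above the median level 9.79% and 15.2%. For 4 of the 5 that fell (Il1rapl1, Il1rap, Slitrk4 and Lrfn5) the call was lost in 4 or 5 of the 6 fits that left out 1 array. Il1rapl1 and Il1rap, which bind Ptprd across the cleft, both fell. Il1rapl1 was at 8.25, 8.67 and 8.63 in controls and at 8.07, 8.004 and 8.16 in mutants, with control 1 only 0.096 above mutant 3. Its log2 change was -0.44 (SE 0.11, limma adjusted p = 0.0241). The adjusted p was 2.98e-04 with control 1 left out, 0.0959 and 0.0683 with control 2 or 3 left out, and 0.0850, 0.0964 and 0.0546 with mutant 1, 2 or 3 left out. Il1rap was at 10.20, 10.24 and 10.30 in controls and at 9.99, 9.93 and 10.10 in mutants, a log2 change of -0.24 (SE 0.062, limma adjusted p = 0.0327). For Il1rap the adjusted p was 0.0964 with control 2, 0.0870 with control 3, 0.113 with mutant 1 and 0.123 with mutant 2 left out.

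SLITRK proteins are further ligands of LAR-type phosphatases, and 2 of 6 fell. Slitrk2 was at 10.03, 10.14 and 10.00 in controls and at 9.72, 9.76 and 9.78 in mutants. The groups were apart by more than the spread within either, with a log2 change of -0.30 (SE 0.057, limma adjusted p = 0.00812), and a second probe set of the gene gave -0.32. Slitrk4 was at 9.33, 9.54 and 9.36 in controls and at 9.18, 9.07 and 9.16 in mutants, a log2 change of -0.28 (SE 0.070, limma adjusted p = 0.0304). Leaving out control 2 gave an adjusted p of 0.0976, and leaving out mutant 1, 2 or 3 gave 0.0719, 0.117 and 0.0836. Slitrk1, Slitrk3 and Slitrk5, of which only Slitrk5 had groups that did not overlap, had changes of 0.095, -0.0075 and 0.14 and did not pass. Slitrk6 was at 4.30 in controls and 4.35 in mutants, and only 3.01% of all genes had a lower mean over the arrays.

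SALM proteins, encoded by the Lrfn genes, are postsynaptic leucine-rich repeat proteins, and Lrfn2 and Lrfn5 moved in opposite directions. Lrfn2, which associates with NMDA receptors, was at 8.83, 8.90 and 8.95 in controls and at 9.11, 9.13 and 9.15 in mutants. Its log2 change was 0.24 (SE 0.055, limma adjusted p = 0.0191). Without control 2 the adjusted p was 0.0649, and without mutants 1, 2 and 3 it was 0.0596, 0.0645 and 0.0802. With quantile normalization renewed over the genes tested it was 0.0751. Lrfn5, a ligand of LAR-type phosphatases, was at 10.20, 10.07 and 10.13 in controls and at 9.81, 9.84 and 9.99 in mutants, with mutant 3 only 0.074 below control 2. Its log2 change was -0.25 (SE 0.067, limma adjusted p = 0.0361), and the adjusted p was 0.0543, 0.0611 and 0.0730 with control 1, 2 or 3 left out and 0.140 and 0.129 with mutant 1 or 2 left out. Lrfn1 had a change of 0.29 (adjusted p = 0.0650, and 0.00455 without control 1), Lrfn4 of 0.16 (adjusted p = 0.0824) and Lrfn3 of -0.047 (adjusted p = 0.648).

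Nectin1 had the largest increase. Its log2 level was 9.24, 9.25 and 9.08 in controls and 10.15, 10.24 and 9.98 in mutants. The lowest mutant lay 0.72 above the highest control, and the log2 change was 0.93 (SE 0.082, 95% interval 0.75 to 1.12, limma adjusted p = 1.39e-04), or 1.91-fold. Nectin3, the dendritic partner of nectin-1, was at 7.54, 7.93 and 7.93 in controls and at 7.29, 7.63 and 7.23 in mutants. Control 1 lay below mutant 2, and the change of -0.42 did not pass (limma adjusted p = 0.0655). It passed without control 1 (-0.55, adjusted p = 0.00563) and without mutant 2 (adjusted p = 0.0330). Nectin2 was at 5.84 in controls and 5.76 in mutants, below the medians of the arrays.

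SynCAM proteins are immunoglobulin adhesion molecules that bind each other across the cleft. Cadm3, a neuronal member found on axons, was at 11.24, 11.001 and 10.81 in controls and at 11.69, 11.63 and 11.64 in mutants. The controls were spread over 0.43 and the mutants over 0.056, and the log2 change was 0.63 (SE 0.098, limma adjusted p = 0.00292), or 1.55-fold. The methods' t-test after adjustment did not call it (adjusted p = 0.0794). Cadm1 and Cadm4 had changes of 0.066 and 0.037, with 95% intervals of -0.067 to 0.20 and -0.11 to 0.18.

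ELFN proteins are postsynaptic and recruit group III metabotropic glutamate receptors to the terminal that faces them. Elfn2 rose from 9.53, 9.41 and 9.17 in controls to 10.12, 10.11 and 9.97 in mutants, a log2 change of 0.69 (SE 0.092, limma adjusted p = 0.00131). This is 1.62-fold, and the methods' t-test after adjustment gave an adjusted p = 0.0585. Elfn1, known from interneurons, was at 6.86, 6.73 and 6.67 in controls and at 6.58, 6.62 and 6.58 in mutants, and its change of -0.16 did not pass although the groups did not overlap (adjusted p = 0.130). The LINGO proteins, leucine-rich repeat components of the Nogo receptor complex, did not pass either, with changes of 0.27 for Lingo1 (adjusted p = 0.106) and 0.060 for Lingo2 (adjusted p = 0.734).

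**Figure D3:**
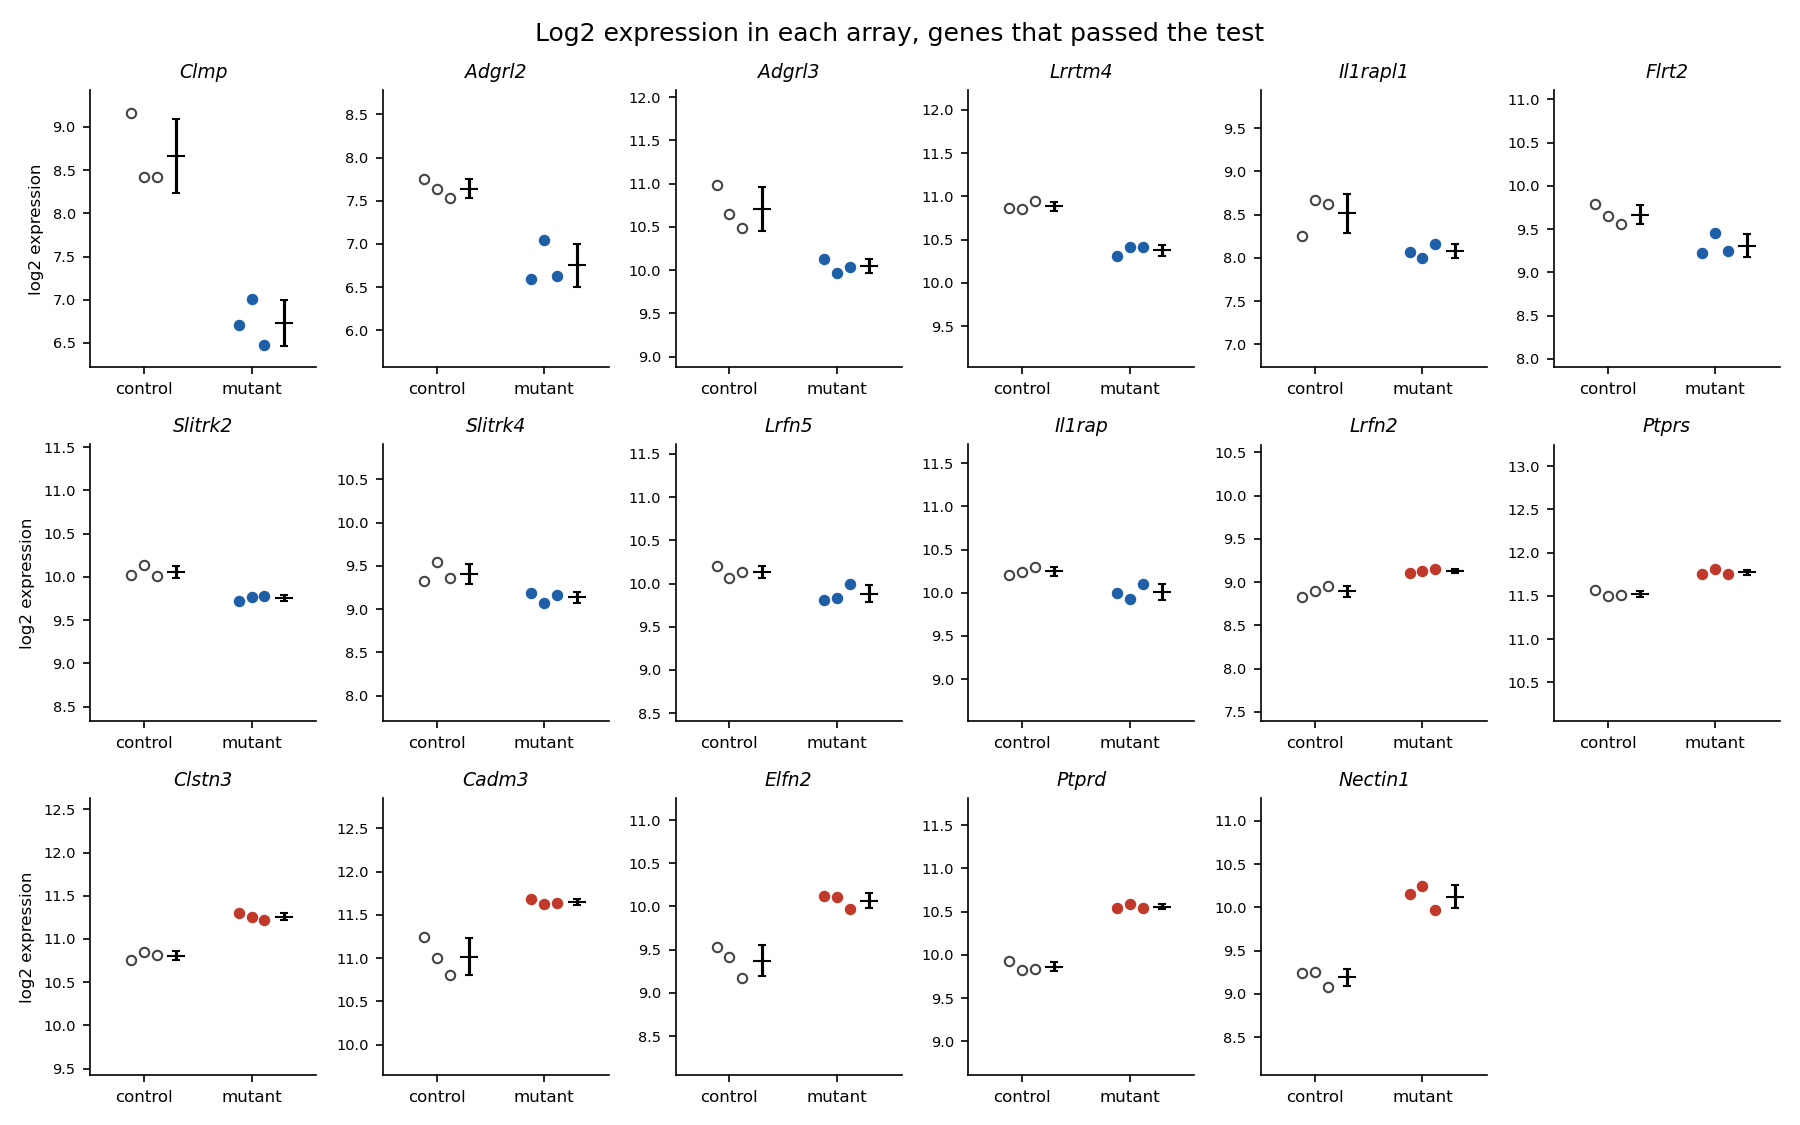
Log2 expression (vertical axes, each spanning the same range of 3.2) of the 17 adhesion genes that passed the test, in order of their change, with open circles for control and filled circles for mutant arrays and black bars for the mean and SD (n = 3 per group). The groups do not overlap in any of the 17 panels, and the distance is largest for Clmp.

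Genes of the same subfamily can be set against each other within an array, where a shift of the whole array cancels. Within an array, the difference between the log2 values of Nectin1 and Nectin3 was 1.701, 1.33 and 1.15 in controls and 2.87, 2.62 and 2.74 in mutants. That between Ptprd and Ptprf was 0.88, 0.88 and 1.22 in controls and 1.81, 2.18 and 2.09 in mutants, and that between Adgrl1 and Adgrl3 was 0.98, 1.001 and 1.08 in controls and 1.67, 1.79 and 1.71 in mutants. These pairs were chosen after their values were seen, so they are given without a test, and since probe sets differ in response only the shift between groups can be read. Each sets a gene that passed against one that did not, so the shift is no further evidence. Of all 56 pairs within a subfamily, 33 had groups that did not overlap. No such share was computed for pairs of other genes, and many of the pairs share a gene. The count therefore cannot be read as a divergence within subfamilies. Of the 14 subfamilies, the interleukin-1 receptor accessory proteins (2 of 2 lower, with 5.93% of all genes lower) were the only one in which every measured gene passed. This subfamily has only 2 genes, and Il1rapl1 lost its call in 5 and Il1rap in 4 of the 6 fits that left out 1 array.

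The other genes of the same adhesion complexes were taken from a list of 49 extracellular and cytoplasmic partners, of which 47 were measured. Of these, 10 rose and 6 fell, which is 34.0%, and the other 31 did not pass. Over all genes 15.2% changed, and 25.0% of those at or above the median level, where 41 of the 47 partners lie. Mdga2, which binds neuroligins on the same membrane and keeps neurexins from them, was at 9.12, 8.91 and 8.71 in controls and at 9.63, 9.56 and 9.61 in mutants. Its log2 change was 0.69 (SE 0.095, limma adjusted p = 0.00157). The teneurins, which bind latrophilins, changed in opposite directions, Tenm1 by 0.40 (adjusted p = 0.00202) and Tenm2 by -0.40 (adjusted p = 0.00412), and Tenm3 and Tenm4 did not pass. Epb41l2, a cytoskeletal linker of the protein 4.1 family, rose by 0.35 (adjusted p = 0.00383), and Tnfrsf19, a receptor related to the LINGO complex, by 0.44 (adjusted p = 0.00445). Grm7, a group III metabotropic glutamate receptor, fell by 0.41 (adjusted p = 0.00137), the FLRT and netrin receptor Unc5c by 0.44 (adjusted p = 0.00424) and Nrxn2 by 0.23 (adjusted p = 0.0227). Grm8, a further group III receptor named after its values were seen, moved the other way (0.49, adjusted p = 0.0221). Its adjusted p was 0.0851 with control 2, 0.0906 with mutant 1 and 0.0870 with mutant 2 left out. Also named outside the rule, after their values were seen, are the glypicans Gpc3, with the largest change of the partners (1.18, adjusted p = 0.00847), and Gpc4, the heparan sulfate proteoglycan that binds Lrrtm4 (-0.24, adjusted p = 0.0354). Without control 2, 6 partners were higher and 3 lower (9.69% of all genes changed). Without it the adjusted p was 0.0914 for Nrxn2 and 0.125 for Gpc4. Without mutants 1, 2 and 3 it was 0.0863, 0.0555 and 0.0887 for Nrxn2, and for Gpc4, with mutant 2 or 3 left out, 0.132 and 0.128. The counts of partners without mutants 1, 2 and 3 were 6, 6 and 7 higher and 4, 3 and 3 lower (9.46%, 9.80% and 9.78% of all genes).

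**Figure D4:**
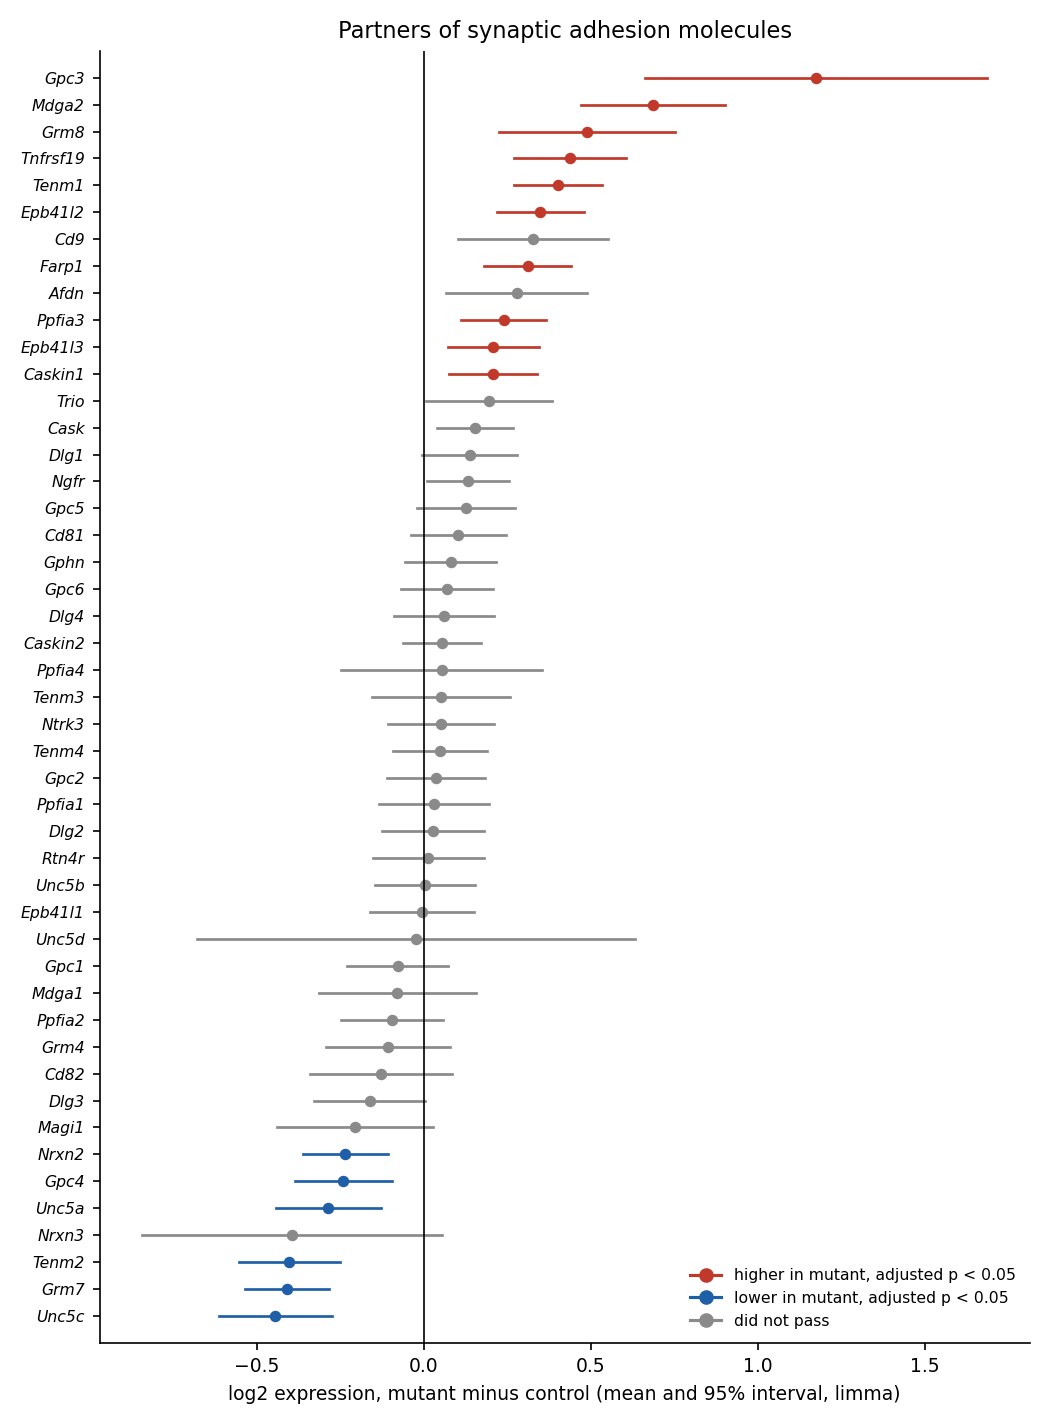
Log2 expression in mutant minus control granule cells for 47 partners of adhesion molecules on the horizontal axis, in order of change, with limma means as points and 95% intervals as lines (3 arrays per group). Red genes were higher and blue genes lower at an adjusted p under 0.05, with 10 red, 6 blue and 31 grey genes that did not pass.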

How the data were processed

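Per the labels, the authors obtained log2 expression values with RMA in Affymetrix Expression Console, and deposited them for 35556 probe sets on 6 one-colour arrays. RMA corrects the background, equalizes the distributions of the arrays and gives 1 value per probe set, so a change shared by all genes is lost. Tool versions are not stated in the sources used here, and the paper names BRB-ArrayTools for the analysis. Precision is limited by the number of arrays, and the table used holds no detection measure.

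Probe sets paired with 1 gene by the platform annotation were kept (21789, with 1621 paired with several genes and 12146 not listed). Entrez numbers tied 21698 of them to RefSeq genes (GRCm38.p6), and 0 symbols changed. Each gene was read from its probe set of highest mean. Mutants and controls, grouped by sample title, went into 1 limma fit (limma 3.58.1, R 4.3.3) across 19938 genes, with Benjamini-Hochberg adjustment over all of them, a threshold of 0.05 and no filter or covariate. The fit was tested on simulated data. The methods give 3 control and 3 mutant DG, and each sample title carries a number of its own, but whether an array holds 1 animal or a pool is not stated. The p-values therefore rest on the spread between the arrays of a group, whatever its source. No batch is given, so none was tested. For replicate numbers 1, 2 and 3 the deviations of control and mutant from their group means correlated at 0.16, -0.033 and 0.12, and the numbers were not taken as pairs.

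The adhesion genes, subfamilies, partners and marker lists were chosen with earlier results of these data known. All adhesion genes are named, with full values for those that passed, and up to 4 partners in each direction with the smallest p. The methods' test is an unpaired two-tailed t-test. The 15 alternatives were this test with and without adjustment, array weights, a trended and robust prior, removal of dim genes (mean log2 under 7.06), the mean of all probe sets, renewed quantile normalization, median centring, the replicate number as a block and leaving out each array.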

Additional observations from a re-analysis of the deposited data

How the results depend on the processing

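No adhesion gene that passed the test changed direction under any of 15 alternatives. Clmp, Lrrtm4, Slitrk2, Ptprd, Nectin1 and Clstn3 passed under all 15, and the other 11 of the 17 genes lost their call under at least 1. Of these, Adgrl2, Adgrl3, Cadm3 and Elfn2 lost it only with the methods' t-test after adjustment. Of the 27 genes that did not pass, 14 passed under at least 1 alternative. The 7 adhesion genes higher in the mutant became 13 with the methods' t-test at an unadjusted p under 0.05 and 12 with array weights, where 22.8% and 27.7% of all genes changed, and ranged from 5 to 11 with 1 array left out. The 10 lower became 3 with the methods' t-test after adjustment, where 5.72% of all genes changed, and ranged from 5 to 11 with 1 array left out. The 10 partners higher became 4 and the 6 lower became 1 with the adjusted t-test, and with 1 array left out they ranged from 6 to 13 and from 3 to 8. The replicate number as a block gave 9 adhesion genes higher and 12 lower, with all 17 calls kept, and 11 partners higher and 6 lower. Among the partners, Epb41l3 lost its call under the block. Under the block Ptprf (adjusted p = 0.0258), Lrfn1 (0.0265), Nectin3 (0.0177) and Lingo1 (0.0174) also passed. In the check of the pairing, 4 of 6 arrays deviated most like the array of the same number in the other group. Median centring moved the median change of all genes from -0.0027 to -0.051, and then 7 adhesion genes were higher and 11 lower. The smallest change among the adhesion genes that passed was 0.24 on the log2 scale (Lrfn2, SE 0.055).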
